A study of Bos taurus with 44 samples.

Results

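The interleukin 1 family and the inflammatory caspases were represented on the array by 6 genes: the agonists IL1A and IL1B, the receptor antagonist IL1RN, the related cytokine IL18, and the proteases CASP1 and CASP4. They were chosen by their gene symbol in the platform annotation, and they are 6 of the 141 named genes measured. The set was proposed with differences of IL1A, IL1B, IL1RN and IL18 between the groups already known, so the values below that compare the groups are a description and carry no test of the set. Each gene had 8 spots per array, and 1 spot value of IL1RN was missing.

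The cells were mononuclear cells of venous blood, prepared on a Percoll gradient from Canadian Holstein cows 6 days after immunization with antigens meant to raise both arms of immunity, and they received no further treatment. The cows were classed by how strongly they responded with antibody (Ab) or with a cell-mediated reaction (DTH in the labels). One cow, named here the shared cow, carries both high labels. The remaining cows were 2 high-Ab, 2 high-DTH, 3 low-Ab and 3 low-DTH animals, which makes 11 cows if cows of different groups are different animals, as was assumed. All cows were female, all had been immunized, and the samples used hold no unimmunized control. The age of the cows is not given in the sources used here.

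Interleukin 1 is an early signal of inflammation that monocytes and macrophages make in quantity. IL1A and IL1B bind the same receptor and switch on other cytokines and chemokines through NF-kB, while IL1RN occupies that receptor without starting a signal. IL1B and IL18 are made as inactive precursors that CASP1 cuts inside inflammasomes; CASP4 belongs to the same caspase subfamily and in human cells senses bacterial lipopolysaccharide in the cytosol. IL18 helps T cells and natural killer cells to make interferon gamma.

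Each value is a log ratio of a cow's RNA to a common RNA standard hybridised to the same array, read as log2, so 0 means equal signal in both. That the ratio runs cow over standard is likely but not stated, and all directions would turn together if it ran the other way. High-DTH cow 2 had 5 arrays, low-DTH cow 3 had 3 and all others had 4, and the arrays of a cow were averaged into 1 value. On 3 of the 44 arrays, namely 1 and 2 of low-Ab cow 1 and number 3 of low-DTH cow 3, the ratios ran against the other arrays of the same cow over the whole array, with correlations down to −0.73 in low-Ab cow 1 and −0.58 in low-DTH cow 3. With the arrays of other cows these 3 arrays had mean correlations between −0.23 and −0.20. Each of the other 41 arrays had a mean of at least 0.05, although 3 single pairs of them from different cows were under −0.3. The sign of the 3 arrays is not settled. The main values use them unchanged, and values with their sign turned, called here the odd arrays turned, are given beside member results that move. Group differences of pathway and marker genes are given as deposited alone.

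The members show what this means in 1 cow. In low-DTH cow 3, IL1B was −2.64 and −2.39 on arrays 1 and 2 and 1.09 on array 3, and IL1A was −1.85 and −1.76 against 1.49. CASP1 was −0.60 on both of the first arrays and 2.23 on array 3. All 6 members were above 0 on array 3 of that cow. In low-Ab cow 1 the members lay nearer to 0, and IL1RN had 0.52 and 0.28 on arrays 1 and 2, against −0.24 and −0.35 on arrays 3 and 4. CASP4 had 0.20 and 0.42 against −0.49 and −0.06. Averaging arrays of opposite sign draws the values of this cow towards 0, also for other genes. CD3D, a T cell gene, was −0.08 there, against 0.30 and 0.29 in low-Ab cows 2 and 3. IL1B lay between −0.14 and 0.02 on all 4 of its arrays. All low-Ab results as deposited include this cow, apart from those that leave it out.

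IL1B, the secreted agonist, separated the groups in opposite directions for the 2 traits. It was −0.43 in the shared cow and −1.03 and −1.15 in the other high-Ab cows, against −0.04, 0.02 and 0.16 in the low-Ab cows. It was −0.43 in the shared cow and −0.91 and −0.35 in the other high-DTH cows, against −1.22, −0.98 and −1.65 in the low-DTH cows. In each trait the high and low cows did not overlap, and the low-Ab cows lay at the level of the RNA standard while the low-DTH cows were the furthest below it. High-DTH cow 2 at −0.91 and low-DTH cow 2 at −0.98 were close together. The arrays of low-DTH cow 2, all of settled sign, gave −1.50, −1.44, −0.49 and −0.48.

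As group means, IL1B was −0.87 ± 0.39 in the high-Ab cows and 0.05 ± 0.10 in the low-Ab cows (SD, n = 3 each), a difference of −0.91 ± 0.20 (SE). It was −0.56 ± 0.30 in the high-DTH cows and −1.28 ± 0.34 in the low-DTH cows (SD, n = 3 each), a difference of 0.72 ± 0.22 (SE). The mean of the low-DTH cows was −1.46 with the odd arrays turned. After quantile normalization of the arrays the DTH difference was 0.30.

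The order of IL1B over the label groups was low-Ab highest, then the shared cow, the 2 further high-DTH cows at −0.63 ± 0.40, the 2 further high-Ab cows at −1.09 ± 0.08 (SD, n = 2 each), and low-DTH. The low-Ab cows stood clear of every other cow. The shared cow lay between the 2 further high-DTH cows, and the 2 further high-Ab cows lay below both of these and within the range of the low-DTH cows. The place of high-DTH cow 3 above the shared cow rests on array 3, at 0.36, while its other arrays were −0.63, −0.65 and −0.48. From arrays 1 and 2 it had −0.64, below the shared cow at −0.43.

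**Figure D1:**
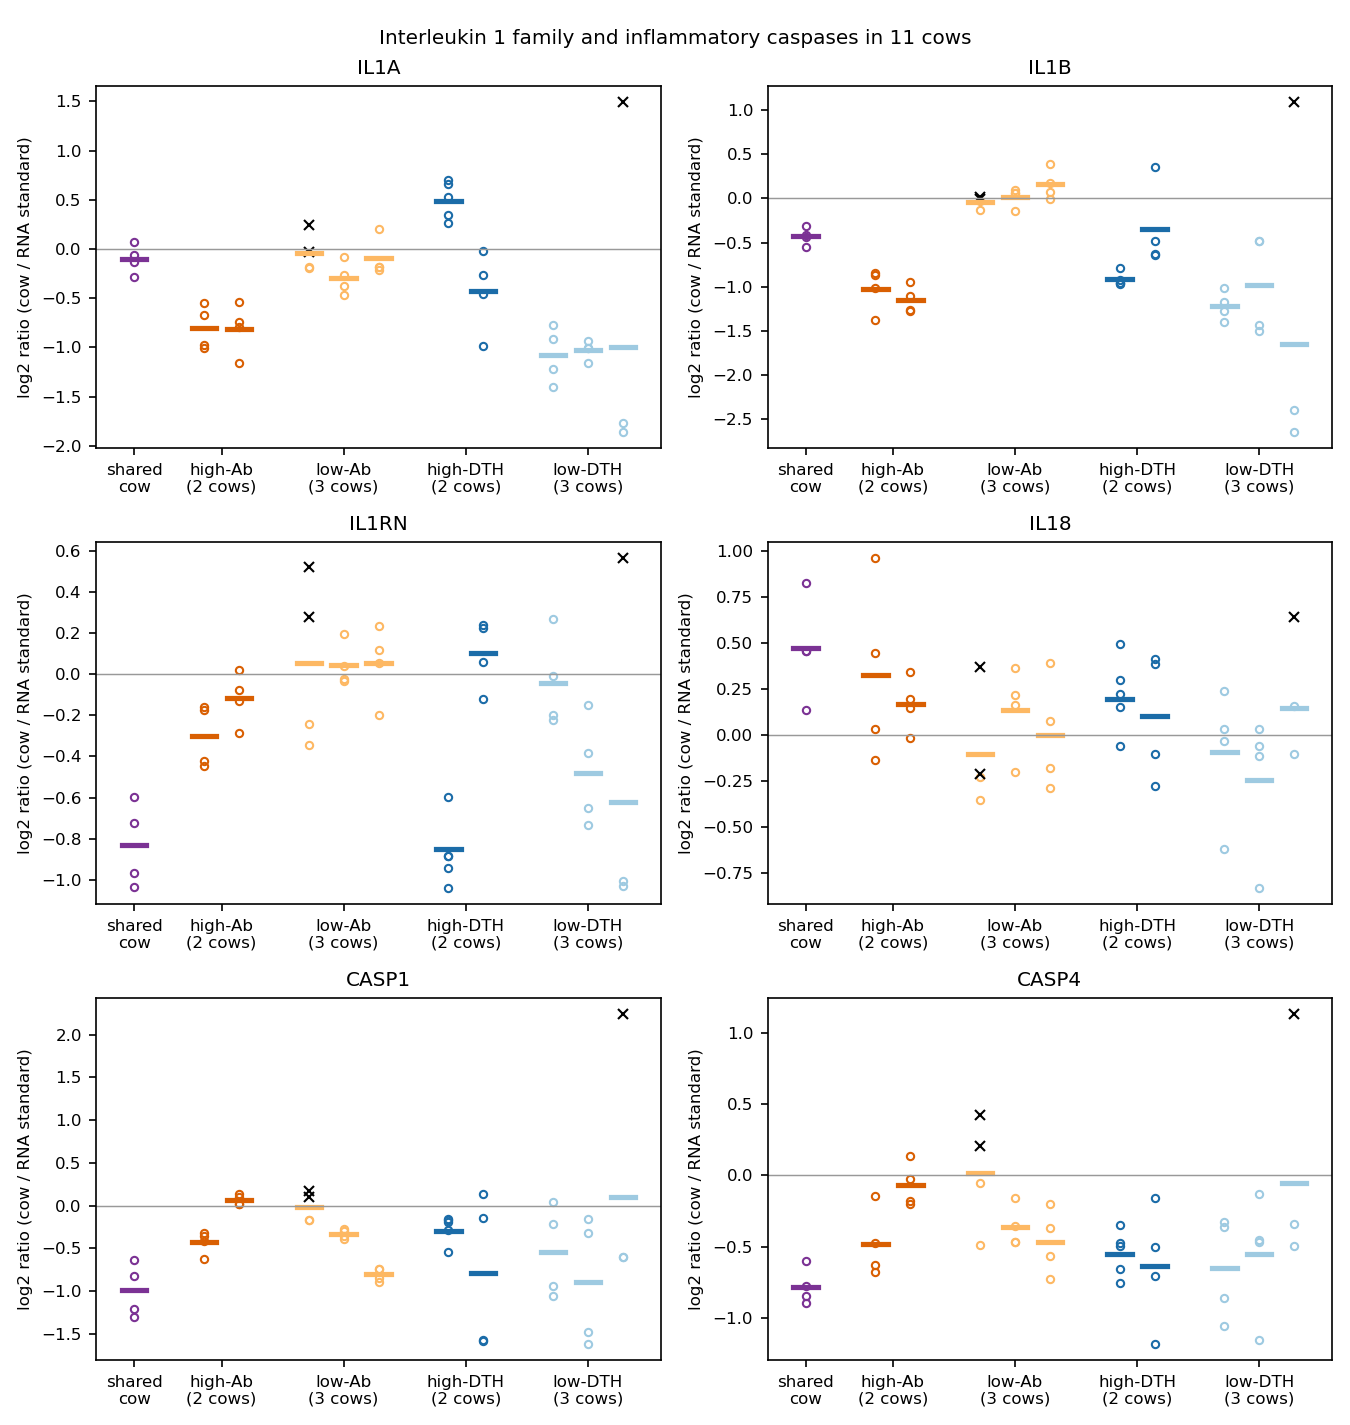
Log2 ratio of cow RNA to the RNA standard (vertical axes, scale differs between panels) for the 6 members. Open circles are arrays, crosses are the 3 arrays of unsettled sign, bars are the cow values, and the groups run from the shared cow over high-Ab, low-Ab and high-DTH to low-DTH. IL1B of the low-Ab cows lies between −0.04 and 0.16, above every other cow, and the cross of low-DTH cow 3 is at 1.09.

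IL1A, the agonist that largely stays in or on the cell, ran with IL1B in the direction of both traits. It was −0.10 in the shared cow and −0.80 and −0.81 in the other high-Ab cows, against −0.04, −0.30 and −0.09 in the low-Ab cows. It was −0.10 in the shared cow and 0.49 and −0.43 in the other high-DTH cows, against −1.08, −1.03 and −0.996 in the low-DTH cows. The DTH groups did not overlap, whereas in the Ab groups the shared cow lay among the low-Ab cows.

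The mean of IL1A was −0.57 ± 0.41 in the high-Ab cows and −0.14 ± 0.14 in the low-Ab cows (SD, n = 3 each), with a difference of −0.43 ± 0.21 (SE), and of −0.66 without the shared cow. It was −0.01 ± 0.47 in the high-DTH cows and −1.03 ± 0.04 in the low-DTH cows (SD, n = 3 each), with a difference of 1.02 ± 0.23 (SE). The close values of the low-DTH cows rest on the array of unsettled sign: with it turned, low-DTH cow 3 had −1.74 and the difference between the DTH groups was 1.27.

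The 2 agonists parted in high-DTH cow 2. Its 5 arrays gave 0.53, 0.27, 0.35, 0.70 and 0.66 for IL1A, the only cow with a positive value, and −0.96, −0.96, −0.79, −0.97 and −0.92 for IL1B. IL1RN was also among the lowest there, from −1.04 to −0.60. The arrays of both dyes and both array sets gave the same picture in this cow.

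The high-minus-low difference of the agonists was itself set against the other trait. For IL1B the Ab effect minus the DTH effect was −1.63 ± 0.25 and for IL1A −1.44 ± 0.26 (SE, fit of 11 cows). The shared cow is in both high groups and cancels out of this contrast. The low-Ab minus low-DTH difference given below is a part of it, so these results are not independent. Both agonists were past the threshold of an adjusted p of 0.05 in limma, where 7 of 561 features (1.25%) were called. An unadjusted p under it was found for 57 of 561 features (10.2%). With the odd arrays turned the differences were −1.81 for IL1B and −1.66 for IL1A, and 0 features were called. Between the low groups, low-Ab minus low-DTH was 1.33 ± 0.19 for IL1B, 1 of the 3 of 561 features (0.535%) called, and 0.89 ± 0.20 for IL1A, which was not called, and 44 of 561 features (7.84%) had an unadjusted p under 0.05. Leaving out any 1 of the shared, high-Ab, low-Ab or low-DTH cows left 0 features called for the Ab effect minus the DTH effect, and leaving out high-DTH cow 3 left 3. For the low groups, leaving out any 1 high-Ab, low-Ab or low-DTH cow left 0 features called.

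Between the 2 further high-Ab and the 2 further high-DTH cows the differences were smaller for IL1B, at −0.46 ± 0.24, and −0.83 ± 0.25 for IL1A (SE). Without each of these cows in turn they ran between −0.74 and −0.17 for IL1B and between −1.29 and −0.37 for IL1A. No feature was called there (0 of 561, 0%, by limma, with 58 of 561, 10.3%, at an unadjusted p under 0.05). Neither the Ab comparison (0 of 562, 0%) nor the DTH comparison (0 of 565, 0%) called any feature after adjustment, and 37 (6.58%) and 55 (9.73%) had an unadjusted p under 0.05. The Ab and DTH comparisons hold the shared cow in common. Without it, the Ab difference of IL1B was −1.13 and IL1B was the 1 feature called in that comparison.

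The arrays of a cow were also divided by their number into 2 sets, arrays 1 and 2 and arrays 3 to 5. The Ab difference of IL1B was −0.89 within arrays 1 and 2 and −0.94 within arrays 3 to 5, and that of IL1A was −0.45 and −0.40. The DTH differences did not keep their size: IL1B had 1.02 within arrays 1 and 2 and −0.21 within arrays 3 to 5, and IL1A had 1.28 and 0.17. In arrays 3 to 5 low-DTH cow 3 is represented by the array of unsettled sign alone, and with that array turned the differences there were 0.52 for IL1B and 1.17 for IL1A. The direction of the DTH difference of IL1B in that set therefore depends on the sign taken for 1 array. Under either sign the DTH groups of IL1B overlapped there, with low-DTH cow 2 at −0.48 and high-DTH cow 2 at −0.87.

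**Figure D2:**
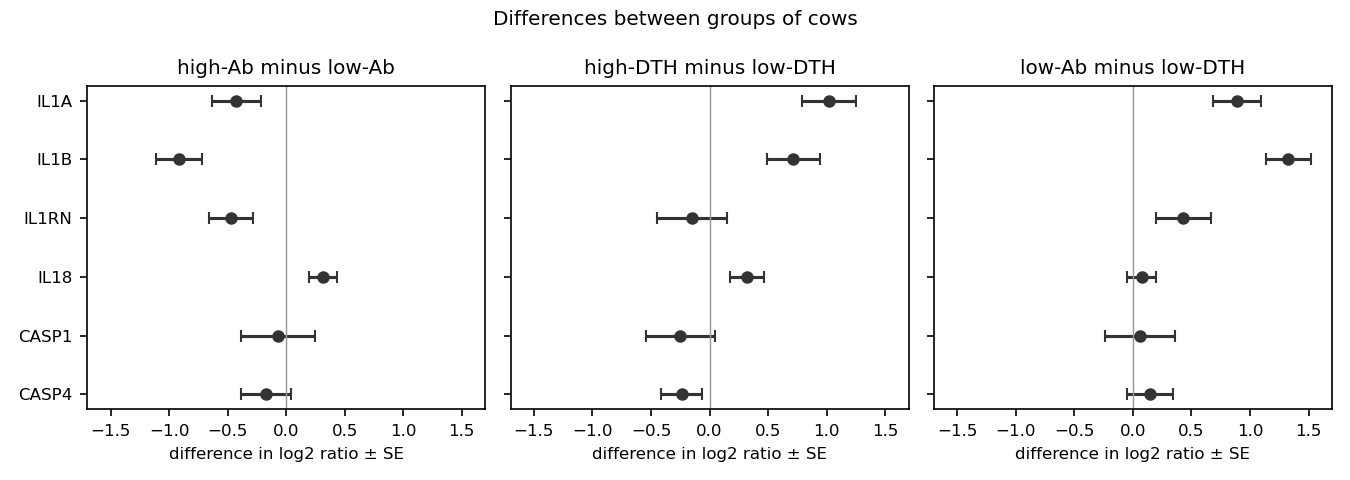
Differences in log2 ratio (horizontal axes, points with bars of 1 SE) of the 6 members for high-Ab minus low-Ab, high-DTH minus low-DTH and low-Ab minus low-DTH. IL1A and IL1B are below 0 in the Ab panel and above 0 in the other panels, while the bars of CASP1 reach across 0 in each panel.

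IL1RN, the antagonist, was lowest in the shared cow and in high-DTH cow 2 as deposited. With the odd arrays turned low-DTH cow 3 was lower than both, at −0.90. It was −0.83 in the shared cow and −0.30 and −0.12 in the other high-Ab cows, against 0.05 in each of the low-Ab cows. It was −0.83 in the shared cow and −0.85 and 0.10 in the other high-DTH cows, against −0.04, −0.48 and −0.62 in the low-DTH cows. The Ab groups did not overlap and the DTH groups did.

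The mean of IL1RN was −0.42 ± 0.37 in the high-Ab cows and 0.05 ± 0.0044 in the low-Ab cows (SD, n = 3 each), with a difference of −0.47 ± 0.19 (SE). The near identity of the low-Ab cows came from averaging the arrays of unsettled sign: with them turned, low-Ab cow 1 had −0.35, which lies within the range of the high-Ab cows, and the difference was −0.33. The DTH difference was −0.15 ± 0.30 (SE), from means of −0.53 ± 0.55 in the high-DTH cows and −0.38 ± 0.30 in the low-DTH cows (SD, n = 3 each). Without the shared cow it was 0.00.

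IL18 was the one member with a positive difference between high and low cows in both traits. It was 0.47 in the shared cow and 0.32 and 0.17 in the other high-Ab cows, against −0.11, 0.13 and −0.00 in the low-Ab cows. It was 0.47 in the shared cow and 0.20 and 0.10 in the other high-DTH cows, against −0.10, −0.25 and 0.15 in the low-DTH cows. The Ab groups did not overlap, with high-Ab cow 3 at 0.17 and low-Ab cow 2 at 0.13 close together, and in the DTH groups high-DTH cow 3 lay below low-DTH cow 3.

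IL18 averaged 0.32 ± 0.15 in the high-Ab cows and 0.01 ± 0.12 in the low-Ab cows (SD, n = 3 each), a difference of 0.31 ± 0.12 (SE). It averaged 0.26 ± 0.19 in the high-DTH cows and −0.06 ± 0.20 in the low-DTH cows (SD, n = 3 each), a difference of 0.32 ± 0.15 (SE). Without the shared cow, which is in both comparisons, the differences were 0.24 for Ab and 0.21 for DTH. Turning the odd arrays put low-DTH cow 3 at −0.17, below every high-DTH cow, and the DTH difference was then 0.43.

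CASP1, the inflammasome protease, had cow values that differed more within groups than the group means differed. It was −0.99 in the shared cow and −0.43 and 0.07 in the other high-Ab cows, against −0.01, −0.33 and −0.80 in the low-Ab cows. It was −0.99 in the shared cow and −0.29 and −0.79 in the other high-DTH cows, against −0.54, −0.89 and 0.11 in the low-DTH cows. High and low cows overlapped in both traits, and the differences were −0.07 ± 0.31 for Ab and −0.25 ± 0.30 for DTH (SE). The DTH difference turned to 0.12 with the odd arrays turned, and low-DTH cow 3 then had −1.01. The SD of CASP1 between arrays of a cow was 0.41 without the arrays of unsettled sign, against 0.39 over the 11 cow values. Differences between single cows are therefore not clear of those between arrays of a cow.

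CASP4 followed the same cows over a narrower range. It was −0.78 in the shared cow and −0.48 and −0.07 in the other high-Ab cows, against 0.02, −0.36 and −0.46 in the low-Ab cows. It was −0.78 in the shared cow and −0.56 and −0.64 in the other high-DTH cows, against −0.65, −0.55 and −0.05 in the low-DTH cows. The groups overlapped, with differences of −0.17 ± 0.22 for Ab and −0.24 ± 0.18 for DTH (SE), which came to −0.07 and −0.05 with the odd arrays turned. Neither caspase, IL18 nor IL1RN was called in any of the 5 comparisons.

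In the Ab comparison the high and low cows of 3 members (IL1B, IL1RN and IL18) did not overlap, where 65 of 562 features (11.6%) did not. In the DTH comparison this held for 2 members (IL1A and IL1B), where it held for 74 of 565 features (13.1%). The low-Ab and low-DTH cows of 3 members (IL1A, IL1B and IL1RN) did not overlap, as in 64 of 561 features (11.4%), and neither did the 2 further high-Ab and 2 further high-DTH cows of 3 members (IL1A, IL1B and CASP4), as in 269 of 561 (48%). Since the set was proposed from these contrasts, nothing is read from these counts.

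The cow-to-cow spread of the members ran from IL1B to IL18. The SD over 11 cows was 0.59 for IL1B, rank 6 of the 141 genes, 0.51 for IL1A, rank 10, and 0.39 for CASP1, rank 15. It was 0.37 for IL1RN, rank 22, 0.27 for CASP4, rank 33, and 0.20 for IL18, rank 49. The median gene had an SD of 0.15, so the cow values of all 6 members varied more than those of the median gene. This SD holds the group differences from which the set was proposed. The SD of cows within label groups was 0.26 for IL1B, rank 27, 0.28 for IL1A, rank 25, and 0.42 for CASP1, rank 13. It was 0.33 for IL1RN, rank 20, 0.27 for CASP4, rank 26, and 0.14 for IL18, rank 65, against 0.13 for the median gene. These SDs and ranks use the arrays as deposited. With the odd arrays turned, the SD of the 3 low-DTH cows rose from 0.34 to 0.64 for IL1B and from 0.04 to 0.40 for IL1A. It rose from 0.30 to 0.43 for IL1RN. It fell from 0.51 to 0.24 for CASP1, from 0.32 to 0.05 for CASP4 and from 0.20 to 0.07 for IL18. The spots of a member agreed within an array, with a median SD between 0.08 and 0.14. Between arrays of a cow, without those of unsettled sign, the SD was 0.26 for IL1B, 0.21 for IL1A and 0.41 for CASP1. It was 0.17 for IL1RN, 0.27 for CASP4 and 0.30 for IL18, against 0.22 for the median gene. For CASP1, CASP4 and IL18 the arrays of a cow were thus spread about as widely as the cow values, or more. How much of the spread of cow values came from the arrays was not tested.

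**Figure D3:**
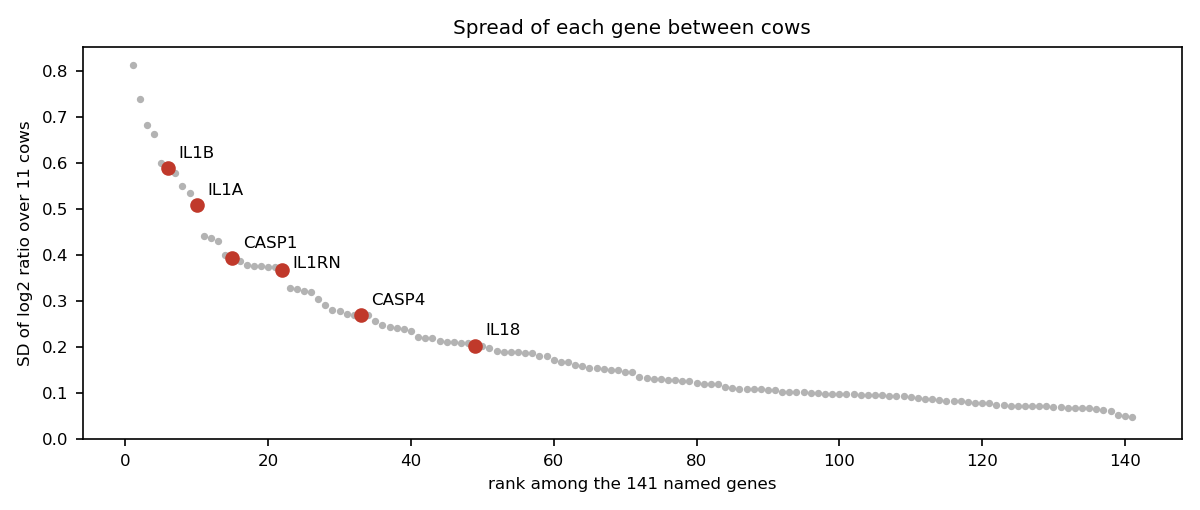
SD of the log2 ratio over 11 cows (vertical axis) against the rank of the gene among the 141 named genes (horizontal axis), with the 6 members in red. IL1B is at 0.59 and rank 6, and IL18 at 0.20 and rank 49, from cow values as deposited.

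The pairs of members were compared over the 11 cows by Pearson's r and Spearman's rho with permutation tests of 100000 resamples, adjusted over the 15 pairs. CASP1 and CASP4 varied together from cow to cow: r was 0.88 (permutation p = 0.00064, adjusted p = 0.0096) and rho was 0.74 (permutation p = 0.0125, adjusted p = 0.107). Without the 2 cows furthest from the median of CASP1, r was 0.80. After the mean of each label group was taken out, r over the 10 cows other than the shared cow was 0.87. Over all 11 cows r was 0.77 from arrays 1 and 2, 0.97 from arrays 3 to 5 and 0.82 with the odd arrays turned. In arrays 3 to 5 low-DTH cow 3 is represented by the array of unsettled sign alone. Without that cow and high-DTH cow 3, r of that set was 0.86. In the cattle genome annotation (ARS-UCD2.0) no protein-coding gene lies between CASP1 and CASP4, and whether the 2 spotted cDNAs cross-hybridise was not tested.

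IL1A and IL1B, with 1 protein-coding gene between them in the same annotation, had an r of 0.62 (permutation p = 0.0425, adjusted p = 0.319) and a rho of 0.73 (permutation p = 0.0142, adjusted p = 0.107). Leaving out the 2 cows furthest from the median of IL1A, of which high-DTH cow 2 was 1, gave an r of 0.90. After the group means were taken out, r over the 10 cows other than the shared cow was −0.61 with the arrays as deposited. It was 0.30 with the odd arrays turned, 0.71 from arrays 1 and 2 and 0.73 from arrays 3 to 5. Its sign within groups was therefore not settled. In arrays 3 to 5 low-DTH cow 3 is represented by the array of unsettled sign alone. With group means left in, r of that set was 0.72, and 0.23 without low-DTH cows 1 and 3. The other 13 pairs had an unadjusted p of r above 0.05.

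**Figure D4:**
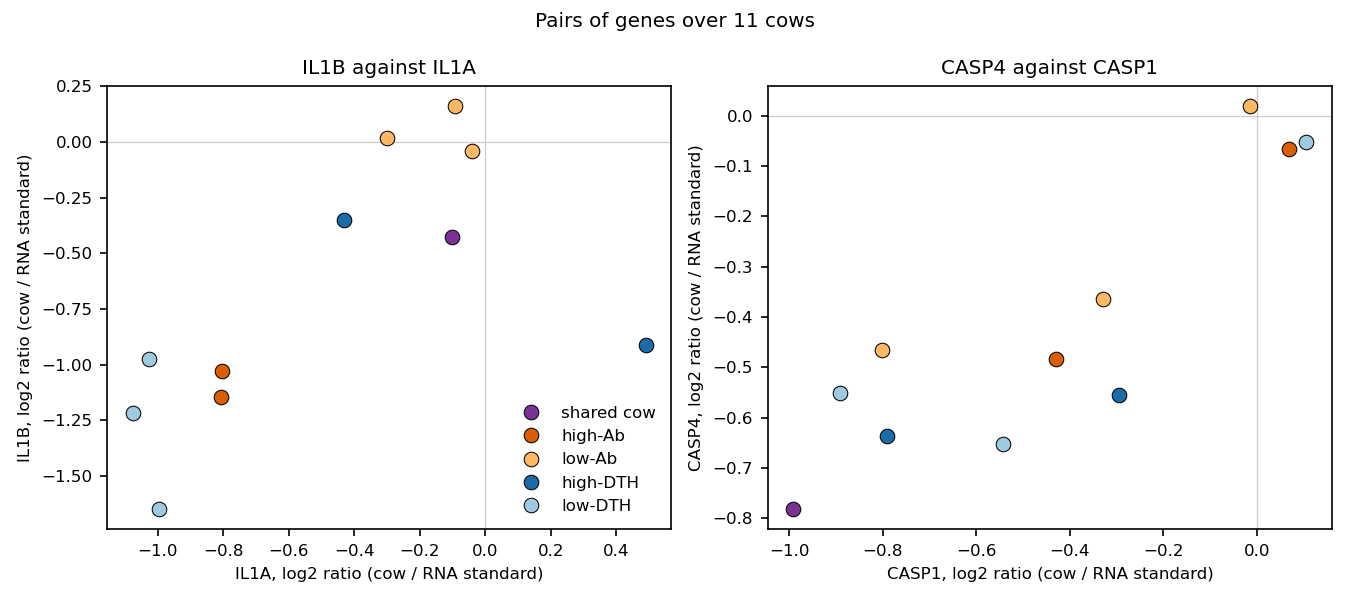
Log2 ratio of IL1B against IL1A (left) and of CASP4 against CASP1 (right), with 1 point per cow coloured by label group. High-DTH cow 2 stands alone at 0.49 for IL1A and −0.91 for IL1B, while the caspases lie along a line from the shared cow at the lower left to cows near 0 at the upper right. Cow values are as deposited. With the odd arrays turned, CASP1 and CASP4 would be −1.01 and −0.61 in low-DTH cow 3, now at 0.11 and −0.05. In low-Ab cow 1, now at −0.01 and 0.02, they would be −0.15 and −0.29.

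The genes whose pattern over the 11 cows was most like that of each member were taken by Pearson's r among the 140 other genes, as a description. For IL1A these were the chemokine genes CCL2 (r = 0.83) and CCL3 (r = 0.75) and the chemokine receptor gene CCR4 (r = 0.74). For IL1B they were CCL3 (r = 0.78), TLR4 (r = 0.64), which encodes the lipopolysaccharide receptor, and IL1A. For IL1RN they were the MHC class II gene BOLA-DQA2 (r = 0.77), SERPINA6 (r = 0.66) and IGF1R (r = 0.63), which with the odd arrays turned had an r of 0.62, 0.34 and 0.09 in that order.

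For IL18 the 3 genes were CD247 (r = 0.88) and CD3G (r = 0.81), which encode chains of the T cell receptor complex, and the chemokine receptor gene CCR3 (r = 0.75). With the odd arrays turned, r with CD247 was 0.53 and with CD3G 0.66. Apart from each other, CASP1 was most like IL2 (r = 0.77) and IGIP (r = 0.74, or 0.29 with the odd arrays turned), and CASP4 most like IL2 (r = 0.72) and IL15 (r = 0.65). All these genes share the arrays, the standard and the centring with the members.

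Of 56 listed genes of the wider interleukin 1 pathway, among them receptors, signalling proteins, inflammasome parts and induced genes, 14 were on the array, and none was called in any of the 5 comparisons by limma. In the Ab comparison 11 of the 14 were lower and 3 higher in high-Ab cows, with 0 at an unadjusted p under 0.05 and a median difference of −0.04, against −0.01 over the 141 genes, of which 45.4% were higher. In the DTH comparison 8 were higher and 6 lower in high-DTH cows, with 1 at an unadjusted p under 0.05 and a median difference of 0.09, against −0.03 over the 141 genes, of which 39.7% were higher. For the Ab effect minus the DTH effect, 4 were above 0 and 10 below, with 2 at an unadjusted p under 0.05, and low-Ab minus low-DTH had 12 above and 2 below, with 2. In each of these 2 comparisons 53.2% of the 141 genes were above 0.

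Of that list, CCL3 and CXCL8, chemokine genes that interleukin 1 is known to induce, had the widest values. CCL3 was 0.07 in the shared cow and −1.25 and −0.48 in the other high-Ab cows, against −0.02, 0.38 and −0.33 in the low-Ab cows. It was 0.07 in the shared cow and −0.06 and −0.61 in the other high-DTH cows, against −1.01, −0.85 and −1.89 in the low-DTH cows. High-DTH cows lay above all low-DTH cows, with a difference of 1.05 ± 0.32, and the Ab difference was −0.56 ± 0.35 (SE). Neither was called. The values of CCL3 use the arrays of unsettled sign as deposited. Its SD between arrays of a cow was 0.85, and 0.18 without those arrays.

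CXCL8, which encodes a neutrophil-attracting chemokine, had differences of −0.70 ± 0.44 for Ab and 1.04 ± 0.50 for DTH (SE). It was 1.01 in high-DTH cow 2, the cow with the highest IL1A, and −1.56 in high-Ab cow 2. The SD of CXCL8 between arrays of a cow was 1.46, and 0.27 without the arrays of unsettled sign. The remaining genes of smallest unadjusted p between the traits were nearer to 0. The Ab effect minus the DTH effect was −0.23 ± 0.11 for TLR4, −0.32 ± 0.18 for CCL2, −0.19 ± 0.13 for CCL20, another chemokine gene, and −0.21 ± 0.14 for the cytokine gene IL6 (SE).

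Since these are mixed mononuclear cells, fewer cells of a type and less RNA per cell cannot be told apart. Of 9 listed monocyte markers 4 were measured. All 4 were lower in high-Ab cows, from −0.40 for FCER1G to −0.00 for FCGR1A, with CD14 at −0.05, and 3 were higher in high-DTH cows, with CD14 at 0.09 and FCER1G at 0.14. CD14, the defining marker, averaged −0.16 ± 0.09 in the high-Ab cows and −0.11 ± 0.10 in the low-Ab cows, and −0.01 ± 0.22 in the high-DTH cows and −0.10 ± 0.31 in the low-DTH cows (SD, n = 3 each). Of 7 neutrophil markers 2 were measured, with Ab differences of −1.04 ± 0.54 for LTF, the lactoferrin gene, and −0.02 ± 0.10 for CXCR2, a chemokine receptor gene (SE). Their DTH differences were −0.04 and 0.03, and LTF had 152 missing spot values and the largest SD between spots of the 141 genes. The part of these cells in the values of IL1A and IL1B was not tested.

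Beside IL18, 6 of the 7 measured T cell markers were higher in high-Ab cows and 6 in high-DTH cows, where 45.4% and 39.7% of all 141 genes were higher. CD163L1, a gene of the family that marks bovine gamma delta T cells, differed by 0.76 ± 0.35 for Ab and 0.45 ± 0.37 for DTH (SE), and both measured natural killer cell markers were lower in the high cows of both traits. CD3G differed by 0.53 ± 0.18 for Ab and 0.56 ± 0.16 for DTH, and CD247 by 0.59 ± 0.11 and 0.33 ± 0.34 (SE). These differences use the arrays of unsettled sign as deposited. The 4 measured B cell markers were 1 higher and 3 lower in high-Ab cows and all lower in high-DTH cows. No listed marker was called in either trait, platelet and red cell precursor markers were not among the named genes, and the part of T cells in the values of IL18 was not tested.

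The arrays of 1 cow allowed the members to be compared across technical settings that the choice of the set did not use. IL18 was higher where the cow's RNA carried Alexa555 than where it carried Alexa647, by 0.30 ± 0.07 (SE) over 11 cows and in 10 of 11 cows (limma adjusted p = 0.0223). The same comparison called 68 of 561 features (12.1%). It held in 8 of the 9 cows without an array of unsettled sign, at 0.28 (limma adjusted p = 0.0475). CASP4 had a dye difference of 0.27 ± 0.08 (SE; limma adjusted p = 0.0398), which over those 9 cows was 0.19 (limma adjusted p = 0.0636).

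The dye difference of IL18, 0.30, stands beside its differences of 0.31 and 0.32 between high and low cows. Within Alexa555 arrays the Ab and DTH differences of IL18 were 0.37 and 0.31, and within Alexa647 arrays they were 0.25 and 0.34. The dyes are balanced over the groups except in the cows with 5 and 3 arrays. For IL1B the Ab difference was −0.94 within Alexa555 and −0.89 within Alexa647, and the DTH difference 0.28 and 1.15, the first of which holds the array of unsettled sign.

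CASP1 differed between the array sets in some cows. It was −1.58 and −1.57 on arrays 3 and 4 of high-DTH cow 3, against −0.15 and 0.13 on arrays 1 and 2. Low-DTH cow 2 had −1.61 and −1.48 on arrays 3 and 4, against −0.31 and −0.16 on arrays 1 and 2, and low-DTH cow 1 had −0.94 and −1.06 against −0.22 and 0.05. In the high-Ab cows other than the shared cow and in low-Ab cows 2 and 3 the sets lay within 0.09 of each other.

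Over the 9 cows without an array of unsettled sign, arrays 3 to 5 minus arrays 1 and 2 was −0.49 ± 0.18 (SE) for CASP1, rank 4 of 141 genes by size and below 0 in 7 cows, and it was not called (limma adjusted p = 0.172; 0 of 560 features, 0%, were called). With the odd arrays turned it was −0.55 over 11 cows (limma adjusted p = 0.0787), where 26 of 560 features (4.64%) were called. What set the array sets apart is not given in the sources used here.

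**Figure D5:**
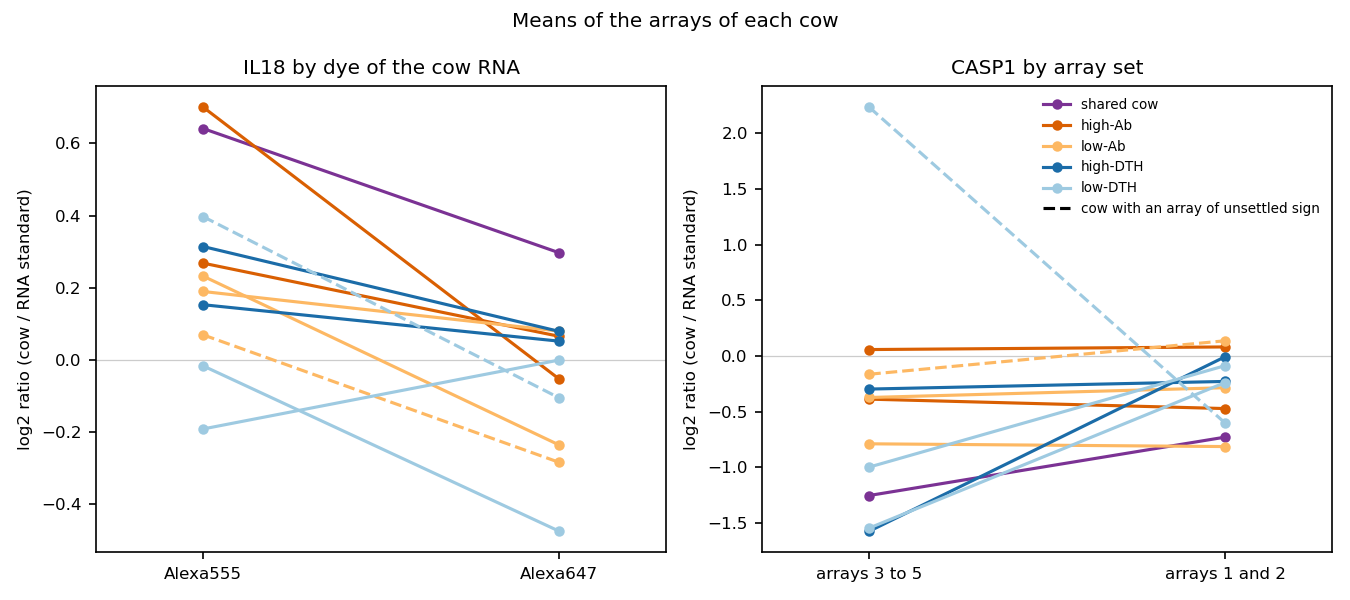
Mean log2 ratio of the arrays of each cow for IL18 by the dye on the cow's RNA (left, Alexa555 then Alexa647) and for CASP1 by array set (right, arrays 3 to 5 then arrays 1 and 2). Lines join the 2 means of a cow and are dashed for the cows with an array of unsettled sign. IL18 is higher with Alexa555 in 10 of 11 cows, and arrays 3 to 5 minus arrays 1 and 2 of CASP1 lies between −1.57 and −0.52 in 4 of the cows with settled arrays.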

How the data were processed

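The authors deposited a log ratio for each spot of each array, taken here to be log2, from 44 two-colour spotted cDNA arrays of amplified RNA labelled with Alexa647 and Alexa555, per the labels' protocols. What the authors did before that (log base, scanner, background correction, normalization) is not given in the sources used here. All array means were within −0.02 and 0.02, which shows centred values. Arrays of a cow with opposite dyes had a mean r of 0.37 (44 pairs), and dye-swapped arrays were therefore used without a change of sign.

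Of 1680 spots, 1224 carried 1 gene symbol in an annotation that can be old, 16 several and 440 none. All 6 members matched the reference by gene ID. Spots were averaged per gene, then arrays within each dye and over both dyes, giving 1 value per cow. Differences were fitted with limma 3.58.1 (lmFit and eBayes, R 4.3.3) with Benjamini-Hochberg adjustment over all genes and single unnamed spots, at a threshold of 0.05, and the fit was tested on simulated data. High groups hold the shared cow with a weight equal to the other cows. Without spot intensities the signal over background is unknown. The small number of cows per group limits the precision of the differences, and the number of arrays that of each cow value. The bovine RNA standard is no sample of a group.

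The genes named are the 6 members, the 3 genes most like each, and the 6 pathway genes of smallest unadjusted p between the traits. Cell type markers named beside them come from the marker lists and were chosen after their values were seen. The members, lists and tests were chosen with earlier results of these data known. The comparisons of dyes and of array sets within a cow, and those of array sets with the odd arrays turned, were added after the values were seen. Alternatives covered the odd arrays, array sets, dyes, normalization, spot and array averaging, the fit and leaving out each cow.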

Additional observations from a re-analysis of the deposited data

Results flagged for a closer look

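Among 72 sets of cows or arrays of a cow, the member's highest or lowest value stood apart from the others by Dixon's criterion in 4, where chance gives about 1 in 20. IL1A on array 2 of low-Ab cow 3 was 0.204, while the other arrays of that cow were between −0.21 and −0.18. IL1B on array 3 of high-DTH cow 3 was 0.358, while the other arrays were between −0.65 and −0.48. IL1B was −0.789 on array 3 of high-DTH cow 2, whose other arrays were between −0.97 and −0.92. IL1B was −0.146 on array 4 of low-Ab cow 2, whose other arrays were between 0.06 and 0.09. The causes were not tested.

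The effects of the traits differed in the fit of 11 cows for both agonists: the Ab effect minus the DTH effect was −1.44 for IL1A and −1.63 for IL1B. These contrasts are among those from which the set was proposed.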

How the results depend on the processing

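IL1A and IL18 kept the direction of their Ab and DTH differences in all 21 alternatives of each, and so did IL1B for Ab, between −1.13 and −0.77, while IL1B for DTH kept it in 20 of 21, between −0.21 (arrays 3 to 5) and 1.15. IL18 ran from 0.24 to 0.39 for Ab and from 0.13 to 0.56 for DTH. CASP1 turned its direction in 3 of 21 alternatives for each trait, and IL1RN in 6 of 21 for DTH. The counts of features called were less steady. Ab effect against DTH effect, with 7 called, gave 0 with the odd arrays turned or left out, in arrays 1 and 2 and arrays 3 to 5 (as deposited or turned), in each dye alone and after quantile normalization; it gave 4 with plain means of arrays and 2 in the array-level fit and among named genes alone. Leaving out a cow gave 0 to 7. Low-Ab against low-DTH, with 3 called, gave 0 in arrays 1 and 2, arrays 3 to 5, Alexa555 alone and after quantile normalization; it gave 1 with the odd arrays turned or left out, in arrays 3 to 5 turned, in Alexa647 alone, in the array-level fit and among named genes alone, and 8 in arrays 1 and 2 turned. Leaving out a cow gave 0 to 4. The array-level fit, which treats arrays of a cow as correlated, called 14 for Ab, 7 for DTH and 8 for high-Ab against high-DTH, where the fit of cow values called 0. Leaving out a cow gave 0 to 1 for Ab and for high-Ab against high-DTH, the 1 of the latter comparison without high-DTH cow 3. Cow number as a replicate block gave 0 for Ab effect against DTH effect and 0 for low-Ab against low-DTH and moved no other count. Deviations of same-numbered cows from their group means correlated between −0.59 and 0.36. With 3 cows per group and the odd arrays as deposited, this cannot settle whether the numbers pair the cows. Signal over background is unknown, so low-signal genes cannot be told from others. The causes of these moves were not tested.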
